A study of Homo sapiens with 12 samples.

Results

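A set of 9 genes that carry recurrent mutations in mantle cell lymphoma, a tumour of mature B cells, were followed across 2 cell lines and an induced knockdown. They were the DNA damage kinase gene ATM, the histone methyltransferase genes KMT2D and NSD2, the chromatin remodeller gene SMARCA4, the receptor genes NOTCH1 and NOTCH2, the transcription factor gene MEF2B, the nucleotide hydrolase gene SAMHD1 and the corepressor gene BCOR. The members were all probe sets that the platform annotation gives to these 9 genes, which came to 45 of the 54675 probe sets on the array. Of the 45, 43 carried 1 gene symbol and 37 had a mean signal over the 12 arrays of at least 12.55, the median of the array medians. The other 8 probe sets lay below that minimum, 3 of them for ATM, 3 for KMT2D, 1 for NOTCH1 and 1 for SAMHD1. For 8 of the 9 genes a probe set of their own could be tested, among 11548 of 19775 genes. The only MEF2B probe set, 205124_at, is annotated to BORCS8 and the BORCS8-MEF2B readthrough as well, so its signal cannot be given to MEF2B alone. The arrays measured RNA and did not read mutations, and whether these lines carry a mutation in any of the 9 genes is not given in the sources used here.

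Both lines, Z-138 and Maver-1, are established human mantle cell lymphoma lines, and each is 1 tumour. The labels give a nonsense change in TRAF2 for Z-138 and a TRAF3 deletion for Maver-1. Each line carried a doxycycline-inducible short hairpin RNA under puromycin selection, either hairpin 1 or hairpin 2 against NIK (NIKsh#1, NIKsh#2) or a non-targeting control hairpin (NTC). Each of the 6 cultures was grown for 7 days with 100 ng/ml doxycycline or with none, with 1 array for each, so that NIKsh with doxycycline, NIKsh without it, NTC with it and NTC without it had 2, 2, 1 and 1 arrays per line. NIK, encoded by MAP3K14, is the kinase on which the alternative NF-kB pathway depends, and the question the design puts to these genes is whether their RNA moves when NIK is lowered. By design a control culture treated with doxycycline differs from a NIKsh culture in the hairpin. Each hairpin is also a separate culture with 1 array per condition, so hairpin, culture and array cannot be told apart. No culture lacks a hairpin vector.

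The hairpin target was read first. MAP3K14 signals with and without doxycycline were 33.3 and 55.2 in Z-138 NIKsh#1, 49.2 and 52.0 in Z-138 NIKsh#2, 63.4 and 86.9 in Maver-1 NIKsh#1, and 55.7 and 79.3 in Maver-1 NIKsh#2, against 55.4 and 46.4 in the Z-138 NTC control and 132.7 and 77.2 in the Maver-1 NTC control. The signal was lower with doxycycline in all 4 NIKsh cultures and higher in both NTC cultures, but the NIKsh change of -0.42 ± 0.18 (SE, log2) had a limma adjusted p of 0.529. Array medians lay between 10.6 and 14.1. All 8 measured B cell and mantle cell lymphoma markers passed the signal minimum, MS4A1 at 2767.1 to 4005.8, although CD5 read 0.5 to 1.6 in Z-138. Of the markers of other cells, 2 of 7 for T and NK cells, 1 of 7 for myeloid cells and 6 of 9 for stromal, endothelial and epithelial cells passed. CD3D, CD3E, CD14 and VWF stayed at or below 8.3. PECAM1 read 44.8 to 929.1 and was highest in Maver-1, as were EPCAM at up to 314.4 and KRT18 at up to 88.2, while COL1A1 reached 244.2 and CD3G 177.5 in Z-138. Their part in the results was not tested. The 3' over 5' signal ratio of ACTB, which rises as RNA is degraded or copied incompletely, was 2.33 to 2.92 on the untreated Z-138 arrays and 3.66 to 6.88 on the untreated Maver-1 arrays, so it moved with the line, and its part in the line differences below was not tested.

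The 9 genes act at different levels of B cell control. NOTCH1 and NOTCH2 are surface receptors that ligands on neighbouring cells activate, after which a protease releases the intracellular part to bind RBPJ on DNA. KMT2D places methyl groups on lysine 4 of histone H3 at enhancers, NSD2 places them on lysine 36, SMARCA4 is an ATPase of the SWI/SNF nucleosome remodelling complexes, and BCOR joins the Polycomb complex PRC1.1 and the repressor BCL6. MEF2B is a transcription factor of germinal centre B cells, ATM starts the response to DNA double-strand breaks, and SAMHD1 breaks down the nucleotides needed for DNA synthesis. In mantle cell lymphoma, mutations of ATM, KMT2D, SAMHD1 and BCOR are mostly of the kind that removes function, while those of NOTCH1 and NOTCH2 truncate the part of the receptor that limits its lifetime.

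Promoter windows from RefSeq (GRCh38.p14, 250 bases before to 50 after an annotated start) are shown for BCOR, NOTCH1 and KMT2D. Among the genes with a tested probe set of their own, these separated the lines on each such probe set above the minimum. NOTCH1 had only 1 of these. The BCOR probe sets passed the minimum only through Maver-1, which fixed their direction, so their agreement is no separate support. All 4 windows lie on the minus strand and are printed 5′ to 3′ along the gene, with matches to a searched motif in capitals. The searches were for TGGGAA, the core letters bound by the NOTCH partner RBPJ, and GGGANTT, the letters that open many NF-kB sites, on both strands.
BCOR upstream start, chrX:40177228-40177527: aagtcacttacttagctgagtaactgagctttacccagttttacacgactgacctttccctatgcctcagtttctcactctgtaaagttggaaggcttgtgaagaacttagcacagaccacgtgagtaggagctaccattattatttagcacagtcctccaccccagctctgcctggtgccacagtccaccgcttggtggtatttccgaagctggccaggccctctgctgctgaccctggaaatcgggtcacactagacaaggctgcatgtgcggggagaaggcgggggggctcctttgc
BCOR downstream start, chrX:40146584-40146883: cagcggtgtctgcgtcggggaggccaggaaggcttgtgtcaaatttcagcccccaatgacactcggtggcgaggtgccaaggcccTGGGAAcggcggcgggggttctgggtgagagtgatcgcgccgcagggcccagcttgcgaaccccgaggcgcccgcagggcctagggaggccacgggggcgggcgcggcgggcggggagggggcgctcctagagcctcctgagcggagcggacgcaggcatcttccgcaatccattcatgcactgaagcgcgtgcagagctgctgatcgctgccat
NOTCH1, chr9:136545999-136546298: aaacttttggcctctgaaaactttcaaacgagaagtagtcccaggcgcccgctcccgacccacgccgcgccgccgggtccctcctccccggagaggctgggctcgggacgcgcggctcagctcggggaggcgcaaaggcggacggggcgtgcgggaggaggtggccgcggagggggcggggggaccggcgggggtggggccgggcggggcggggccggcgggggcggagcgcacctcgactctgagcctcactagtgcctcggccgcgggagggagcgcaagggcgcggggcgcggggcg
KMT2D, chr12:49060745-49061044: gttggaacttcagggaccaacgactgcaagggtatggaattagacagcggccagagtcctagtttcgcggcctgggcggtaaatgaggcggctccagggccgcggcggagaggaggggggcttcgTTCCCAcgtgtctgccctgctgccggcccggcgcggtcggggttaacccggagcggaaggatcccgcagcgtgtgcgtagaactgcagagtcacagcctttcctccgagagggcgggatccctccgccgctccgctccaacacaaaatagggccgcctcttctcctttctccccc
TGGGAA stood at position 86 of the downstream BCOR window and, on the opposite strand as TTCCCA, at position 126 of the KMT2D window, counted from 1 at the printed 5′ end. No GGGANTT was found in these 4 windows, so the motifs, which can share bases, did not overlap here. Among all 35116 RefSeq promoter windows 24% held TGGGAA and 15.9% held GGGANTT. The NOTCH1 window had a GC content of 77% and 42 CG dinucleotides, the KMT2D window 65% and 27, the downstream BCOR window 69.3% and 29, and the upstream BCOR window 53% and 7, against a median GC content of 58.7% over all windows. The letters GGGANTT were taken after a longer form of the motif had been searched and had given no match in these windows. A match is a description of the letters and not a bound site, and no match says nothing about the factor.

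The clearest feature of these genes was a difference between the lines and not a response to doxycycline. On the 6 untreated arrays, with 3 cultures per line, NOTCH1 and KMT2D were higher and BCOR, ATM and NSD2 lower in Z-138 than in Maver-1, and SMARCA4, NOTCH2 and SAMHD1 did not pass the test (limma on log2(signal + 3), Benjamini-Hochberg adjusted p under 0.05 over all 11548 genes). That is 5 of 8 genes, or 62.5%, while 60.2% of all genes tested passed in the same comparison, so the share of the 8 genes was close to the background. BCOR passed the signal minimum only through Maver-1, which fixed its direction. By direction 2 of the 8 were higher and 3 lower, against 25.5% higher and 34.8% lower of all genes. The median difference of the 8 genes was -0.10 and that of all genes -0.083. Among the 35 tested probe sets with 1 symbol, 7 were higher and 8 lower in Z-138, against 25.8% higher and 27.1% lower, 52.9% in all, of the 27856 probe sets tested. Of all genes called, 42.3% were higher in Z-138, and 54.0% when each array was centred on its median, which moved the median of all genes to 0.044. The lines differ in far more than the TRAF genes, and the p-values cover no more than the spread among these 6 cultures. An exact permutation test of 3 against 3 cannot go below a two-sided p of 0.1, which BCOR, NOTCH1, KMT2D, ATM and NSD2 each reached. In these 5 genes the untreated lines did not overlap, as in 65.8% of all genes.

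**Figure D1:**
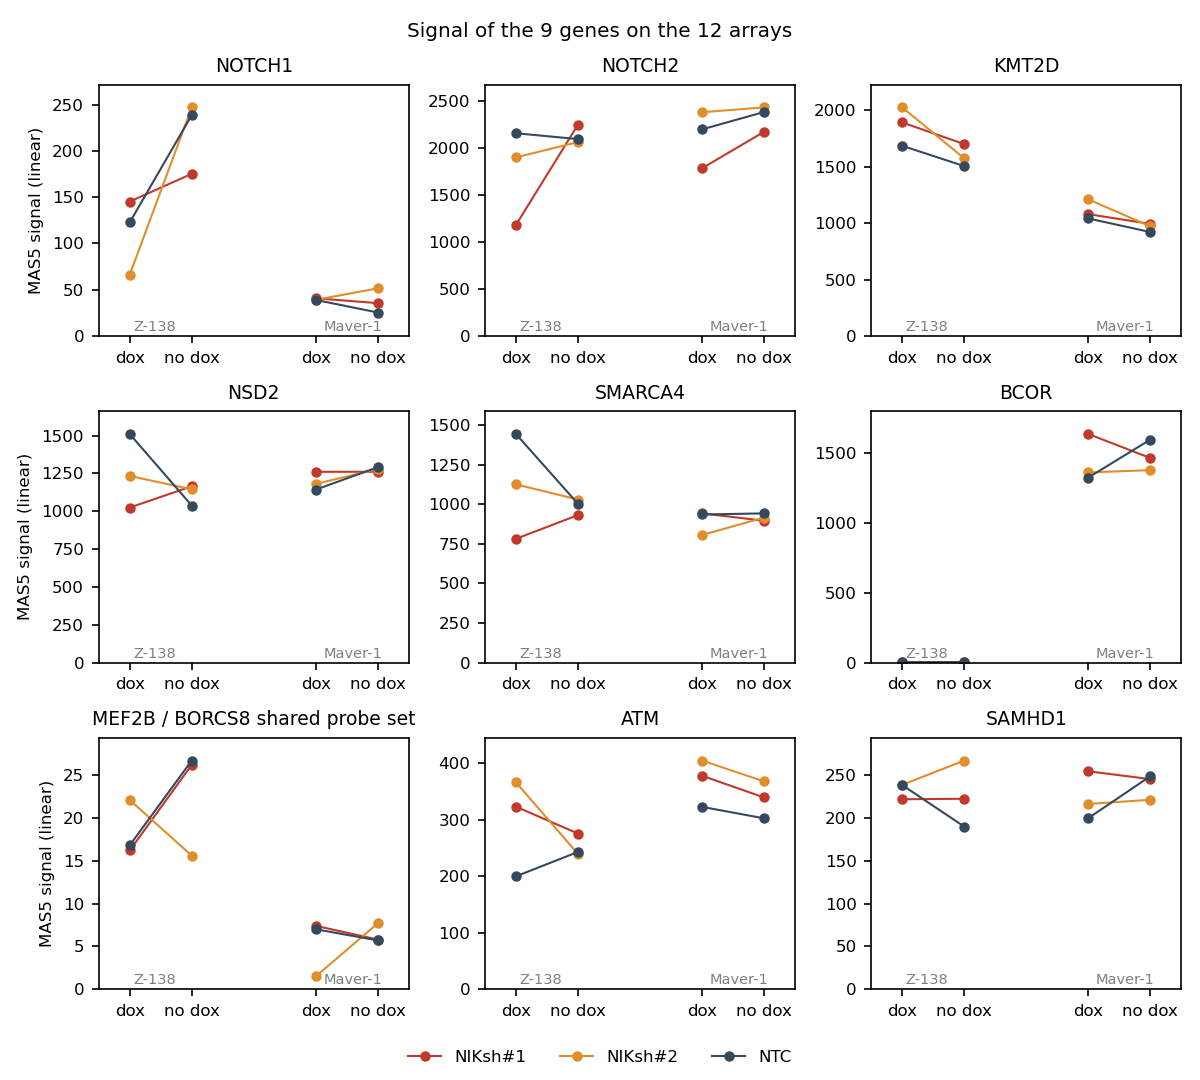
MAS5 signal (linear axes that start at 0 and differ between panels) of each gene's probe set on the 12 arrays, with the doxycycline array left of the untreated array of the same culture, Z-138 on the left and Maver-1 on the right, and colour for the hairpin. BCOR lies between 0.2 and 4.5 on all Z-138 arrays and between 1321.5 and 1633.2 on all Maver-1 arrays, and the KMT2D line slopes down towards the untreated array in all 6 cultures.

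BCOR, the corepressor gene (X:40051246-40177277, GRCh38.p14), had the largest difference of the 8 genes. Probe set 219433_at read 4.5, 0.2 and 3.5 on the Z-138 NIKsh#1, NIKsh#2 and NTC arrays with doxycycline and 3.7, 3.1 and 2.9 on the same cultures without it. In Maver-1 the values were 1633.2, 1358.4 and 1321.5 with doxycycline and 1461.4, 1374.9 and 1592.8 without it. Every Z-138 value lay below its array median, and no value of the lines overlapped. The untreated means were 3.23 ± 0.416 in Z-138 and 1476.4 ± 110.0 in Maver-1 (SD, n = 3 each), a log2 difference of -7.89 ± 0.15 with a limma adjusted p of 7.51e-13. A difference at or below this size was found for 4 of the 11548 genes, or 0.0346%. All 4 BCOR probe sets were lower in Z-138, with differences of -7.89 to -2.84. Their Z-138 signals, 0.2 to 7.2, all lay below the minimum of 12.55, so each passed it only through Maver-1. That filter fixed their direction, and neither their agreement nor the p-value is separate support for it. Of the 219433_at signals in Z-138, 5 lay at 2.9 to 4.5, near the 25th percentile of all probe sets (3.0 to 3.6 across arrays). The lowest, 0.2, lay far below it. Since detection calls were not used here, the size of the difference depends on the added constant.

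The genes beside BCOR on the X chromosome were read for comparison, taking the 4 nearest on each side in the RefSeq annotation. On the side of lower coordinates MID1IP1 and RPGR did not pass, with differences of 0.13 ± 0.10 and 0.24 ± 0.14 (limma adjusted p of 0.299 and 0.144). OTC and TSPAN7 were below the signal minimum, with no array above 5.2. On the side of higher coordinates ATP6AP2 was lower in Z-138 by -0.50 ± 0.12, CXorf38 by -1.0 ± 0.12 and MED14 by -0.70 ± 0.11 (limma adjusted p of 0.00229, 9.29e-06 and 0.000126). MPC1L had no probe set of its own. ATP6AP2, which codes for a proton pump subunit, still averaged 769.0 ± 123.0 in Z-138 and 1083.4 ± 104.0 in Maver-1 (SD, n = 3 each), so the near-floor signal of BCOR was not shared by the measured neighbours that passed the minimum.

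Among 10 tested partners and relatives of BCOR in PRC1.1 and the BCL6 corepressor complexes, 4 were higher and 3 lower in Z-138, or 70% against 60.2% of all genes. BCORL1, the paralog of BCOR, averaged 185.3 ± 24.2 in Z-138 and 56.2 ± 16.7 in Maver-1 (SD, n = 3 each), a difference of 1.71 ± 0.21 with a limma adjusted p of 1.18e-05. Z-138 also had more RNA of YAF2 (1.01 ± 0.14) and of the PRC1.1 subunit PCGF1 (0.66 ± 0.11). BCL6, the germinal centre repressor that BCOR binds, averaged 26.3 ± 8.47 in Z-138 and 382.7 ± 80.4 in Maver-1, a difference of -3.73 ± 0.21 with a limma adjusted p of 7.74e-09. BCOR and its partner BCL6 were thus both lower in Z-138 while the paralog BCORL1 was higher.

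**Figure D2:**
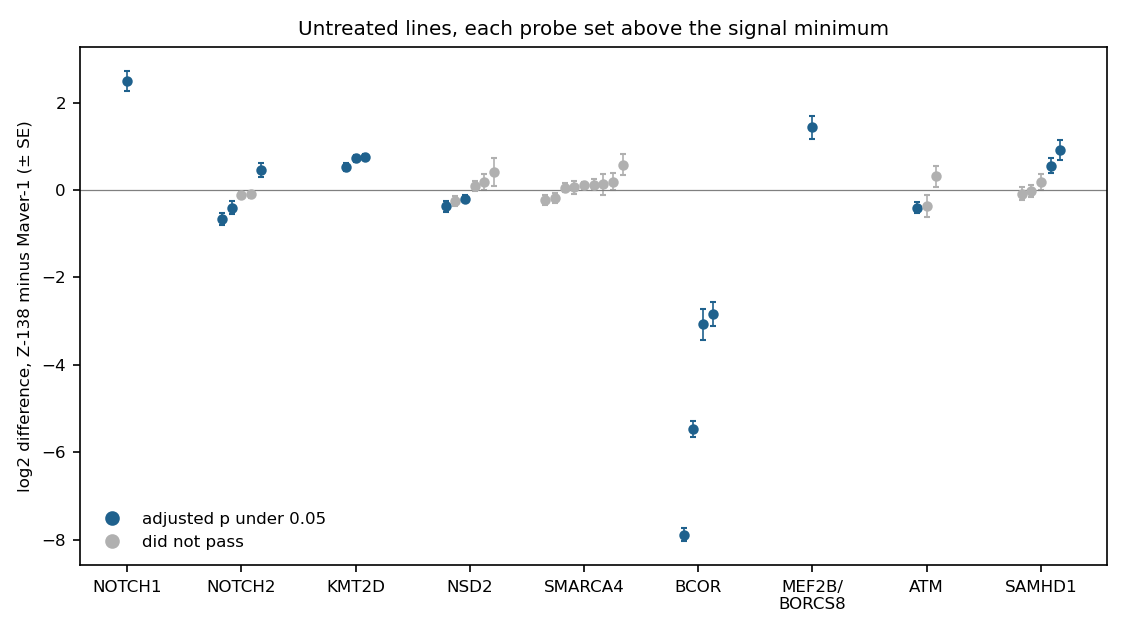
Log2 difference of the untreated lines, Z-138 minus Maver-1, with its standard error, for each member probe set above the signal minimum (vertical axis), grouped by gene, blue where the adjusted p is under 0.05. BCOR lies below 0 on all 4 probe sets, KMT2D above 0 on all 3, and the 9 SMARCA4 probe sets stay between -0.23 and 0.57 with none passing. The BCOR probe sets passed the minimum only through Maver-1, and the one shared by MEF2B and BORCS8 only through Z-138.

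NOTCH1 (9:136494433-136546048) was the receptor gene that was higher in Z-138. Its probe set 218902_at read 145.3, 66.0 and 122.7 in Z-138 NIKsh#1, NIKsh#2 and NTC with doxycycline and 175.3, 247.1 and 238.7 without it. In Maver-1 the signals were 40.8, 39.1 and 39.0 with doxycycline and 35.5, 51.5 and 25.4 without it. The lines did not overlap, and the Z-138 arrays were the more variable. Untreated means were 220.4 ± 39.3 in Z-138 and 37.5 ± 13.2 in Maver-1 (SD, n = 3 each), a difference of 2.50 ± 0.22 with a limma adjusted p of 6.4e-07. The other NOTCH1 probe set, 223508_at, stayed at 15.2 or lower on all arrays and was not tested.

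NOTCH2 (1:119911553-120069662), the receptor that marginal zone B cells depend on, gave strong signals in both lines. Probe set 212377_s_at read 1182.4, 1903.2 and 2160.5 in Z-138 NIKsh#1, NIKsh#2 and NTC with doxycycline and 2251.7, 2066.7 and 2098.0 without it. Maver-1 gave 1787.5, 2384.4 and 2201.6 with doxycycline and 2175.9, 2436.2 and 2386.8 without it. The untreated difference of -0.12 ± 0.07 did not pass (limma adjusted p = 0.124). Its probe sets disagreed, since 202445_s_at was higher in Z-138 by 0.46 ± 0.15 and 210756_s_at lower by -0.40 ± 0.14 (limma adjusted p of 0.0255 and 0.0288 over all probe sets). The probe set shared with the NOTCH2NL genes, 227067_x_at, was lower in Z-138 by -0.66 ± 0.13 (limma adjusted p = 0.00144), and which of these genes gives that signal cannot be told from it.

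The other genes of the NOTCH pathway are set against the 60.2% of all genes that passed between the untreated lines. Of 3 tested ligand genes, JAG1 was higher in Z-138 by 3.49 ± 0.16 and JAG2 lower by -1.45 ± 0.17, and DLL3 did not pass. NOTCH4 was lower in Z-138 by -1.72 ± 0.28 (limma adjusted p = 0.000164). Among 19 tested genes that process or modify the receptors, 4 were higher and 9 lower (68.4%), the lower ones including MFNG (-1.40 ± 0.09), which adds sugars to the receptors, and the protease gene ADAM17 (-0.60 ± 0.08). RBPJ, the DNA-binding partner, did not pass, with 1708.8 ± 162.0 in Z-138 against 1553.3 ± 74.1 in Maver-1, and of 6 tested genes of the nuclear complex, RBPJ among them, 1 was higher and 2 lower (50%). Of 11 tested NOTCH target genes 6 were higher and 4 lower in Z-138 (90.9%). NRARP and HEY2 were higher by 1.28 each (SE 0.13 and 0.12), FCER2, which codes for CD23, was higher by 1.80 ± 0.26, and HEY1 was lower by -2.47 ± 0.23. The target genes that passed were thus split between the directions.

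KMT2D (12:49018978-49060794), the enhancer methyltransferase gene, was higher in Z-138 on all 3 probe sets above the minimum. Probe set 227528_s_at read 1893.4, 2026.8 and 1686.4 in Z-138 NIKsh#1, NIKsh#2 and NTC with doxycycline and 1701.3, 1575.5 and 1506.3 without it. The Maver-1 signals were 1080.3, 1211.6 and 1042.5 with doxycycline and 993.7, 971.7 and 921.6 without it. No Maver-1 array reached the lowest Z-138 array. Untreated means were 1594.4 ± 98.9 in Z-138 and 962.3 ± 37.0 in Maver-1 (SD, n = 3 each), a difference of 0.73 ± 0.08 with a limma adjusted p of 2.97e-06. Its 3 probe sets gave differences of 0.52 to 0.76. Of 15 tested genes of the KMT2 complexes and the H3K27 demethylases 3 were higher and 3 lower, or 40% against 60.2% of all genes, among them the demethylase gene KDM6B, higher by 1.57 ± 0.17, and the shared subunit genes RBBP5, higher by 0.80 ± 0.11, and WDR5, lower by -0.68 ± 0.16. KMT2C, the paralog of KMT2D, averaged 1437.8 ± 88.9 in Z-138 and 1418.8 ± 46.1 in Maver-1 and did not pass (limma adjusted p = 0.847).

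NSD2 (4:1871393-1982192) and SMARCA4 (19:10961030-11062273) were read at similar signals in both lines. NSD2 probe set 209053_s_at read 1024.1, 1233.1 and 1510.4 in Z-138 NIKsh#1, NIKsh#2 and NTC with doxycycline and 1164.8, 1144.8 and 1037.5 without it. Maver-1 gave 1260.4, 1180.4 and 1142.7 with doxycycline and 1260.9, 1279.2 and 1291.0 without it. The untreated difference of -0.20 ± 0.08 passed (limma adjusted p = 0.0378), and the untreated means were 1115.7 ± 68.5 in Z-138 against 1277.0 ± 15.2 in Maver-1 (SD, n = 3 each). It did not pass under 11 of 17 alternatives, and without the Z-138 NTC, Maver-1 NTC, Maver-1 NIKsh#1 or Maver-1 NIKsh#2 array the adjusted p was 0.11, 0.0821, 0.0797 and 0.0912. Of its 6 probe sets 2 were lower in Z-138 and 4 did not pass, with differences of -0.38 to 0.41. Of 13 tested genes that write, read or erase H3K36 or H3K27 methylation 4 were higher and 5 lower, or 69.2% against 60.2% of all genes, with PSIP1, a reader of H3K36 methylation, higher by 1.11 ± 0.09 and the PRC2 subunit gene EED lower by -0.84 ± 0.09.

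SMARCA4 probe set 208794_s_at read 782.3, 1126.5 and 1444.9 in Z-138 NIKsh#1, NIKsh#2 and NTC with doxycycline and 932.1, 1030.7 and 1003.7 without it. In Maver-1 it read 943.1, 806.2 and 936.0 with doxycycline and 896.6, 916.5 and 943.0 without it. The highest and the lowest of the 12 values were both Z-138 arrays with doxycycline. None of its 9 probe sets passed between the untreated lines, and the gene's difference was 0.10 ± 0.08 (limma adjusted p = 0.268, and 0.0242 with arrays centred on their medians). Of 23 tested SWI/SNF subunit genes 10 were higher and 6 lower in Z-138, or 69.6% against 60.2% of all genes. SMARCA2, the other ATPase gene of these complexes, averaged 1622.8 ± 14.2 in Z-138 and 746.8 ± 32.9 in Maver-1 (SD, n = 3 each), a difference of 1.12 ± 0.07. The subunit genes ARID2, ARID1B and PBRM1 were higher by 0.94 ± 0.07, 0.99 ± 0.10 and 0.68 ± 0.08, while ARID1A was lower by -0.77 ± 0.09.

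ATM (11:108223067-108369102) was lower in Z-138 on the probe set that stood for it. Probe set 212672_at read 323.4, 366.6 and 200.0 in Z-138 NIKsh#1, NIKsh#2 and NTC with doxycycline and 275.8, 239.7 and 243.2 without it. In Maver-1 the values were 378.2, 405.1 and 323.1 with doxycycline and 339.7, 368.1 and 302.7 without it. The untreated arrays of the lines did not overlap, while the treated ones did. The untreated means were 252.9 ± 19.9 in Z-138 and 336.8 ± 32.8 in Maver-1 (SD, n = 3 each), a difference of -0.41 ± 0.12 with a limma adjusted p of 0.00932. It did not pass in 3 of 17 alternatives. The mean over its probe sets gave -0.159 (limma adjusted p = 0.406), arrays centred on their medians -0.281 (0.057), and the fit without Maver-1 NIKsh#2 -0.342 (0.0502), and neither of the weaker probe sets 208442_s_at and 210858_x_at passed. Of 20 tested genes of the DNA damage response 5 were higher and 11 lower in Z-138, or 80% against 60.2% of all genes called and 34.8% lower. MRE11, a subunit of the complex that recruits ATM to breaks, averaged 140.1 ± 25.5 in Z-138 and 899.4 ± 66.0 in Maver-1, a difference of -2.67 ± 0.13 with a limma adjusted p of 1.75e-09, and its partner gene RAD50 was lower by -0.45 ± 0.11. PPM1D and MDM4, both restraints of the p53 response, were higher by 0.90 ± 0.11 and 0.55 ± 0.08.

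SAMHD1 (20:36889773-36951708) probe set 235529_x_at read 221.9, 238.7 and 238.5 in Z-138 NIKsh#1, NIKsh#2 and NTC with doxycycline and 222.5, 267.1 and 190.0 without it. Maver-1 gave 254.6, 216.4 and 199.8 with doxycycline and 245.4, 221.3 and 248.8 without it. The lines overlapped, and the untreated difference of -0.09 ± 0.14 did not pass (limma adjusted p = 0.616). Of its 5 tested probe sets 2 were higher in Z-138, 1559883_s_at by 0.92 ± 0.22 and 234987_at by 0.55 ± 0.17, and 3 did not pass. Probe sets ending in _x_at may also bind related transcripts. Of 18 tested genes of nucleotide supply and of the interferon diseases that SAMHD1 belongs to, 2 were higher and 6 lower, or 44.4% against 60.2% of all genes. The ribonucleotide reductase subunit gene RRM2B was lower in Z-138 by -1.36 ± 0.10 and the RNA sensor gene IFIH1 by -0.97 ± 0.11, while RNASEH2B was higher by 1.47 ± 0.13.

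The probe set shared by MEF2B (19:19145567-19170263) and BORCS8 gave signals near the minimum. It read 16.2, 22.1 and 16.8 in Z-138 NIKsh#1, NIKsh#2 and NTC with doxycycline and 26.2, 15.6 and 26.7 without it. Maver-1 gave 7.4, 1.5 and 7.0 with doxycycline and 5.8, 7.7 and 5.7 without it. All Z-138 arrays were above all Maver-1 arrays. The Maver-1 signals of 1.5 to 7.7 all lay below the minimum of 12.55, so the probe set was tested only through Z-138. That filter fixed the direction of the difference, and the p-value is no separate support for it. The untreated difference was 1.43 ± 0.27 (limma adjusted p = 0.00074 over all probe sets). Among 9 tested MEF2 relatives and partners 1 was higher and 6 lower, or 77.8% against 60.2% of all genes called and 34.8% lower. MEF2C was lower in Z-138 by -2.59 ± 0.22 (74.3 ± 18.7 in Z-138 and 467.9 ± 145.0 in Maver-1, SD, n = 3 each), MEF2A lower by -0.73 ± 0.09 and MEF2D higher by 1.15 ± 0.13.

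None of the 8 genes passed for a change with doxycycline in the 4 NIKsh cultures. In that comparison 5 of 11548 genes were called, or 0.0433%, so few genes of any kind passed. At an unadjusted p under 0.05 there were 2 of the 8, KMT2D and NOTCH2, against 8.98% of all genes. None of the 35 probe sets with 1 symbol passed in the fit over all probe sets, which called 0.00718% of them, and 5 of the 35 had an unadjusted p under 0.05, against 8.11% of all probe sets. The median change of the 8 genes was -0.05 and that of all genes 0.007. Nor did any of the 8 pass in the NTC cultures or in the difference between NIKsh and NTC changes, where 0% of all genes were called by limma and 3.35% and 5.43% had an unadjusted p under 0.05. Of the 8 genes none had one there.

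**Figure D3:**
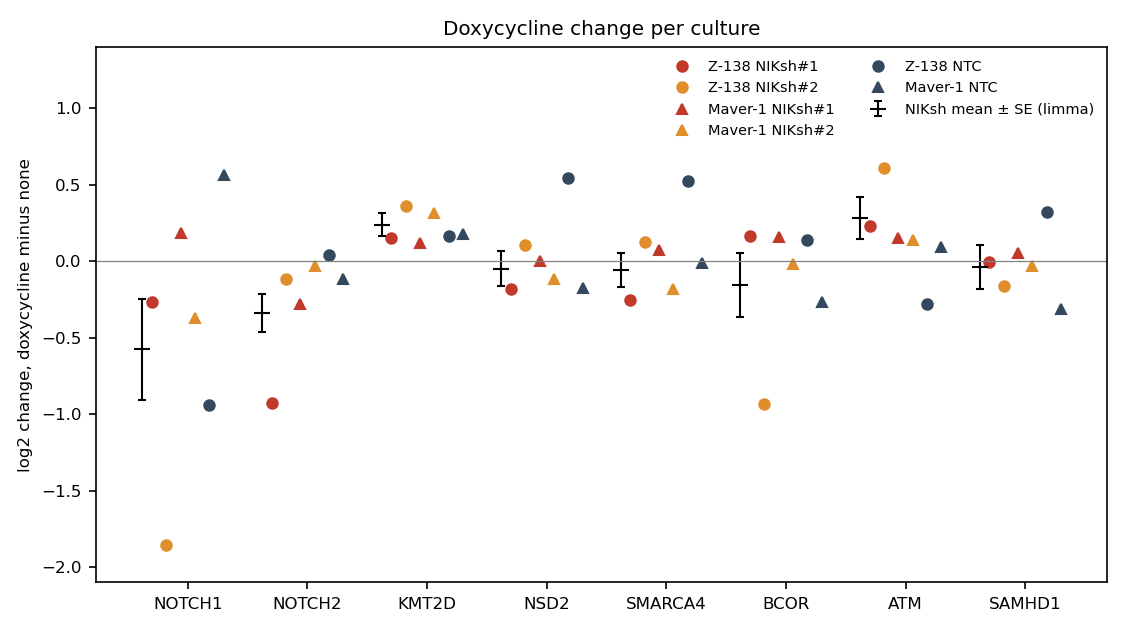
Log2 change of each gene's signal with doxycycline against none (vertical axis) in each of the 6 cultures, coloured by hairpin and shaped by line, with the limma mean and standard error over the 4 NIKsh cultures as the black mark at the left of each gene. KMT2D lies above 0 in all 6 cultures, and the lowest NOTCH1, NOTCH2 and BCOR points are each a single Z-138 NIKsh culture.

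KMT2D was higher with doxycycline in every culture, with log2 changes of 0.15 and 0.36 in Z-138 NIKsh#1 and NIKsh#2 and 0.12 and 0.32 in Maver-1 NIKsh#1 and NIKsh#2, against 0.16 in the Z-138 control and 0.18 in the Maver-1 control. All 3 probe sets above the minimum were higher in all 6 cultures, by 0.04 to 0.51. Of all genes tested 2.34% were higher in all 6 cultures on the probe set that stood for them. The NIKsh change was 0.24 ± 0.08 (limma adjusted p = 0.363), and the NIKsh minus NTC difference was 0.07 ± 0.13 (limma adjusted p = 0.937). With 1 effect for all 6 cultures, a fit added after the values were seen, the change was 0.22 ± 0.06 (limma adjusted p = 0.679).

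On the probe set that stood for it ATM was higher with doxycycline in all 4 NIKsh cultures, as were 9.95% of all genes. Its changes were 0.23 and 0.61 in Z-138 NIKsh#1 and NIKsh#2 and 0.15 and 0.14 in Maver-1 NIKsh#1 and NIKsh#2, against -0.28 in the Z-138 control and 0.09 in the Maver-1 control. Of the other tested ATM probe sets 210858_x_at was higher in all 4 as well, by 0.01 to 0.211, while 208442_s_at was lower in Maver-1 NIKsh#1 and NIKsh#2, with changes of -0.305 and -0.369. On 212672_at the NIKsh changes lay above both NTC changes, which held for 7.12% of all genes. The NIKsh change was 0.28 ± 0.14 (limma adjusted p = 0.597), or 0.173 without Z-138 NIKsh#2. The NIKsh minus NTC difference was 0.37 ± 0.24 (limma adjusted p = 0.884), or 0.188 without Z-138 NTC. An exact two-sided permutation test of the 4 against the 2 changes gave p = 0.133, and this design allows no p below 0.0667.

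On the probe set that stood for it NOTCH2 was lower with doxycycline in all 4 NIKsh cultures, as were 8.29% of all genes, and the change was far larger in 1 culture than in the others. The changes were -0.93 and -0.12 in Z-138 NIKsh#1 and NIKsh#2 and -0.28 and -0.03 in Maver-1 NIKsh#1 and NIKsh#2, against 0.04 in the Z-138 control and -0.12 in the Maver-1 control. In Z-138 NIKsh#1 the 4 probe sets of NOTCH2 alone were all lower with doxycycline, with changes of -1.28 to -0.91, and the probe set shared with the NOTCH2NL genes gave -0.52. Z-138 NIKsh#2 had -0.60 to -0.06 on the same 4 probe sets. In Maver-1 NIKsh#1 and NIKsh#2 the probe set 202445_s_at was instead higher, by 0.022 and 0.195, and the other 3 were lower. MAP3K14, the target, had changes of -0.68 in Z-138 NIKsh#1 and -0.08 in Z-138 NIKsh#2. In Maver-1 NIKsh#1 and NIKsh#2 its changes were -0.44 and -0.49. Whether the NOTCH2 changes go with those of MAP3K14 was not tested. The NOTCH2 NIKsh change was -0.34 ± 0.13 (limma adjusted p = 0.446), or -0.14 without Z-138 NIKsh#1. The NIKsh minus NTC difference of NOTCH2 was -0.30 ± 0.22 (limma adjusted p = 0.884), or -0.107 without Z-138 NIKsh#1.

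**Figure D4:**
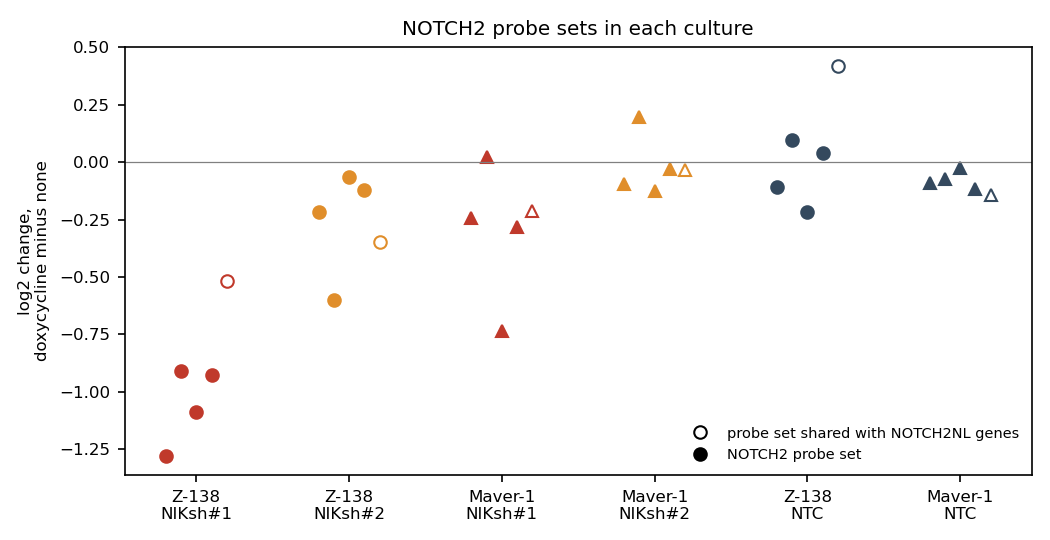
Log2 change with doxycycline against none (vertical axis) of the 5 NOTCH2 probe sets in each culture, filled for probe sets of NOTCH2 alone and open for the probe set shared with NOTCH2NL genes. The 4 filled points of Z-138 NIKsh#1 lie between -1.28 and -0.91, below all points of the other 5 cultures.

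NOTCH1 had the widest changes. They were -0.27 and -1.86 in Z-138 NIKsh#1 and NIKsh#2 and 0.19 and -0.37 in Maver-1 NIKsh#1 and NIKsh#2, against -0.94 in the Z-138 control and 0.56 in the Maver-1 control. The Z-138 control culture thus had a lower signal with doxycycline too. The NIKsh change was -0.58 ± 0.33 (limma adjusted p = 0.684), or -0.151 without Z-138 NIKsh#2, and the NIKsh minus NTC difference -0.39 ± 0.57 (limma adjusted p = 0.921).

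Fitted by line, 247 genes, or 2.14%, were called for the doxycycline change in the Z-138 NIKsh cultures and 0% in Maver-1, where 3.97% had an unadjusted p under 0.05. In Z-138 NOTCH1 changed by -1.06 ± 0.36 and NOTCH2 by -0.52 ± 0.16, and neither passed (limma adjusted p of 0.186 and 0.146). In Maver-1 the values were -0.09 ± 0.36 and -0.16 ± 0.16. The differences between lines, Z-138 minus Maver-1, were -0.97 ± 0.51 for NOTCH1 and -0.37 ± 0.22 for NOTCH2 (limma adjusted p of 0.637 and 0.68), in a comparison that called 0.121% of genes. These calls turned on single cultures. The NOTCH1 change in Z-138 passed without Maver-1 NIKsh#1, Maver-1 NIKsh#2 or Z-138 NIKsh#1 (limma adjusted p of 0.0346, 0.0389 and 0.00158), and was -1.86 in the last case. NOTCH2 passed without Maver-1 NIKsh#1, Maver-1 NIKsh#2 or Z-138 NIKsh#2 (limma adjusted p of 1.4e-05, 5.04e-05 and 0.000121), and was -0.93 in the last case. The difference between lines passed for NOTCH1 without Z-138 NIKsh#1 (-1.77 ± 0.40, limma adjusted p = 0.0199) and for NOTCH2 without Z-138 NIKsh#2 (-0.77 ± 0.15, limma adjusted p = 0.0153). Other omissions shrank the values. The NOTCH1 change in Z-138 was -0.266 without Z-138 NIKsh#2 (limma adjusted p = 0.774), and its difference between lines was -0.173 (limma adjusted p = 0.964). The NOTCH2 change in Z-138 was -0.119 without Z-138 NIKsh#1 (limma adjusted p = 0.598), and its difference between lines was 0.038 (limma adjusted p = 0.918). In each of these fits a lone culture was assumed to vary like the others.

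The remaining genes had small NIKsh changes. SMARCA4 changed by -0.06 ± 0.11, NSD2 by -0.05 ± 0.11, SAMHD1 by -0.04 ± 0.14 and BCOR by -0.16 ± 0.21 (limma adjusted p of 0.935, 0.947, 0.975 and 0.9). For SMARCA4 the Z-138 NTC culture stood apart, with 7 of 9 probe sets higher with doxycycline and changes of up to 1.11, while 8 of 9 were lower in Z-138 NIKsh#1. The SMARCA4 NIKsh minus NTC difference was -0.32 ± 0.19 (limma adjusted p = 0.884), or -0.048 when the Z-138 control was left out and -0.583 when the Maver-1 control was. For this difference 3 of the 35 probe sets with 1 symbol had an unadjusted limma p under 0.05, against 1389 of all 27856. All 3 were of SMARCA4, 208793_x_at (-0.646), 212520_s_at (-0.645) and 213719_s_at (-0.845). Its probe sets 1569073_x_at and 214360_at gave 0.169 and 0.062, and none passed after adjustment. NSD2 also had its highest change in Z-138 NTC, at 0.54. For BCOR only Maver-1 gives a readable change, 0.16 in NIKsh#1 and -0.02 in NIKsh#2 against -0.27 in NTC, because both arrays of each Z-138 culture were near the floor. The MEF2B and BORCS8 probe set changed by -0.29 ± 0.31 (limma adjusted p = 0.876 over all probe sets).

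Some of these changes ran beside the ACTB ratio. The ratio with and without doxycycline was 4.62 and 2.86 in Z-138 NIKsh#1, 5.09 and 2.92 in Z-138 NIKsh#2, 4.32 and 4.68 in Maver-1 NIKsh#1, and 3.8 and 3.66 in Maver-1 NIKsh#2, against 6.34 and 2.33 in the Z-138 control and 4.43 and 6.88 in the Maver-1 control. It was higher with doxycycline in all 3 Z-138 cultures and lower in Maver-1 NTC. The same ratio of GAPDH with and without doxycycline was 1.36 and 1.3 in Z-138 NIKsh#1 and 1.83 and 1.15 in Z-138 NIKsh#2. In the controls it was 2.0 and 1.17 in Z-138 and 1.68 and 2.39 in Maver-1. NOTCH1 218902_at, the only tested probe set of its gene, was lower with doxycycline in all 3 Z-138 cultures and higher in Maver-1 NTC. So were NSD2 209052_s_at and SAMHD1 1559883_s_at, the weakest tested probe sets of their genes. These 3 were chosen after their values were seen. The weakest tested probe sets of ATM, KMT2D, SMARCA4, NOTCH2 and BCOR did not have this pattern. Another SMARCA4 probe set, 214360_at, did have it. It changed by -0.292, -0.585 and -0.708 in Z-138 NIKsh#1, NIKsh#2 and NTC and by 0.639 in Maver-1 NTC. So did BCOR 223916_s_at, whose Z-138 signals all lay below the signal minimum. KMT2D 231974_at was higher in all 6 cultures and SMARCA4 1569073_x_at lower in all 6. ATM 208442_s_at changed by 0.396, 0.224 and -0.492 in Z-138 NIKsh#1, NIKsh#2 and NTC. NSD2 209052_s_at changed by -0.69, -1.17 and -0.74 in Z-138 NIKsh#1, NIKsh#2 and NTC, while the probe set that stood for NSD2 changed by -0.18, 0.11 and 0.54 in these cultures. SAMHD1 1559883_s_at changed by -0.67, -1.28 and -0.74, and the probe set that stood for SAMHD1 by -0.004, -0.16 and 0.32. The part of the ACTB ratio in these changes was not tested.

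**Figure D5:**
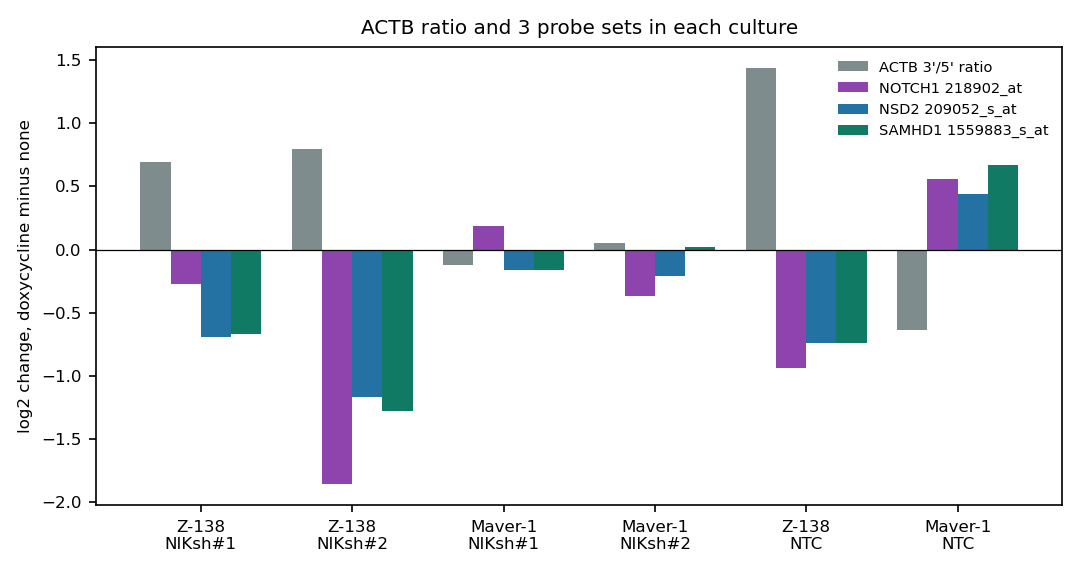
Log2 change with doxycycline against none (vertical axis) of the ACTB 3' to 5' ratio and of single NOTCH1, NSD2 and SAMHD1 probe sets in each culture. These probe sets were chosen after their values were seen. The ratio is higher and all 3 probe sets lower in the 3 Z-138 cultures, and the reverse holds in Maver-1 NTC, where the ratio changed by -0.64 and NOTCH1 by 0.56.

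No gene of the pathways around the 9 genes passed for the NIKsh change in any list, and the list medians lay between -0.11 and 0.26 against 0.007 for all genes. These lists held the NOTCH ligands, other receptors, processing genes, nuclear partners and targets (3, 1, 19, 6 and 11 tested), the DNA damage, KMT2, H3K36, SWI/SNF, MEF2, nucleotide and PRC1.1 genes (20, 15, 13, 23, 9, 18 and 10 tested), and 23 further genes mutated in this lymphoma. HES1, a NOTCH target, had changes of 1.32 and 0.51 in Z-138 NIKsh#1 and NIKsh#2 and -0.14 and 0.65 in Maver-1 NIKsh#1 and NIKsh#2, against -0.05 in the Z-138 control and -0.15 in the Maver-1 control. IFIH1 was lower in all 4 NIKsh cultures, at -1.96, -1.29, -0.59 and -0.23 in the same order, against 0.33 and 0.02 in the NTC cultures, with a NIKsh change of -1.02 ± 0.24 (limma adjusted p = 0.205). The MEF2 partner HDAC4 had 0.66 ± 0.20 (limma adjusted p = 0.346). These values did not pass over the 4 NIKsh cultures. In the fit by line, where 2.14% of all genes were called in Z-138, 3 of the listed genes passed there. They came from the MEF2 and the nucleotide lists, and each of the other lists had 0% called. So few calls over all the lists are not read as a response of any 1 list. HDAC4 was higher with doxycycline by 1.04 ± 0.20 and HDAC9, of the same family, by 0.69 ± 0.11, which makes 2 of 9 MEF2 genes, and IFIH1 was lower by -1.63 ± 0.21, 1 of 18 nucleotide and interferon genes (limma adjusted p of 0.0343, 0.0187 and 0.00654). None of the 3 passed in Maver-1 or in the difference between lines (limma adjusted p of 0.512, 0.283 and 0.281 for the difference).

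Between the untreated lines 17 of those 23 further mutated genes passed, 6 higher and 11 lower in Z-138, or 73.9% against 60.2% of all genes. TRAF3, an adaptor that keeps NIK low, averaged 317.2 ± 49.5 in Z-138 and 1.83 ± 2.15 in Maver-1 (SD, n = 3 each), the line labelled with its deletion, and the difference was 6.12 ± 0.27, whose size depends on the added constant as for BCOR, since the Maver-1 signals were 0.4 to 4.3 without doxycycline. SP140 was lower in Z-138 by -2.50 ± 0.14 and CCND1, the cyclin gene that the translocation of this lymphoma activates, by -1.41 ± 0.09. BCOR in Z-138 and TRAF3 in Maver-1 were both near the floor in 1 line and strong in the other. The labels give no BCOR change for Z-138, and the cause of its low BCOR signal was not tested. NFKBIE, an inhibitor of NF-kB, had changes with doxycycline of -1.23 and -0.05 in Z-138 NIKsh#1 and NIKsh#2 and -1.09 and -0.70 in Maver-1 NIKsh#1 and NIKsh#2, against 0.55 in the Z-138 control and 0.18 in the Maver-1 control, and its NIKsh change of -0.77 ± 0.20 did not pass (limma adjusted p = 0.246).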

How the data were processed

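Total RNA was amplified, labelled with biotin and hybridised to 12 Affymetrix 3' expression arrays, per the labels. The authors deposited a linear signal intensity per probe set, made with MAS5 per the submitters' processing notes. The mean of each array without its lowest and highest 2 percent was 150.02, and no further normalization was applied here. Precision is limited by how many arrays there are.

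Of 54675 probe sets 41091 had 1 gene symbol, 1801 several, 11777 none in the platform annotation, and 62 were controls. Positions are from RefSeq GRCh38.p14. The probe set with the highest mean log2(signal + 3) among those with 1 symbol stood for its gene. limma 3.58.1 (R 4.3.3) with an intensity trend and Benjamini-Hochberg adjustment was fitted over all 11548 genes, and again over all 27856 probe sets above the minimum, which includes those with several symbols or none. Culture was a fixed block, since the cells of each culture grew in both media. The deviations of the 2 arrays of a hairpin from their group means correlated across genes, which are not independent, with r = -0.038 (Z-138) and 0.202 (Maver-1). The 3 cultures per line differ in their hairpin. The fits were tested on simulated data. Python 3.11.15 with pandas 2.3.3 (tables) and matplotlib 3.10.9 (plots) did the rest.

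All 9 members are named, and from each list the 4 genes with the smallest p per comparison (NIKsh change, lines) could be, as could MAP3K14 and TRAF3. The members and lists were chosen with earlier results of these data known. Listed genes without a probe set of 1 symbol were not analysed here. Alternatives were other pseudocounts, filters, probe set rules, scalings and blocks, array weights and leaving out each culture.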

Additional observations from a re-analysis of the deposited data

Results flagged for a closer look

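The fitted BCOR value of Z-138 NIKsh#2 stood apart from those of the other NIKsh cultures. It was -0.93 on the log2 scale, against 0.16 in Z-138 NIKsh#1, 0.16 in Maver-1 NIKsh#1 and -0.02 in Maver-1 NIKsh#2, and its gap to the nearest of them was 0.835 of the whole range, above Dixon's critical ratio for 4 values. The signals behind it were 0.2 with doxycycline and 3.1 without, both near the floor and below the array medians, so the value cannot be read as a change in BCOR. Chance flags about 1 in 20 such groups.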

How the results depend on the processing

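Between the untreated lines BCOR, NOTCH1 and KMT2D passed under every alternative run, with differences of -8.45 to -4.82, 1.35 to 2.74 and 0.37 to 0.85, while ATM passed in 14 of 17 and NSD2 in 6 of 17. The number of the 8 genes called was 5 (3 with the mean over probe sets, 3 to 5 over the leave-one-out fits). NOTCH2 passed with quantile normalization (-0.16, limma adjusted p = 0.0184). With arrays centred on their medians NOTCH2 and SAMHD1 turned to 0.002 and 0.041. SAMHD1 was also 0.244 with the mean over probe sets and -0.209 to 0.033 over the leave-one-out fits. With the construct as a replicate block in the line comparison 4 of the 8 genes were called, NSD2 being lost.

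For the NIKsh change no member passed under any alternative. The mean over probe sets, which includes weak ones, turned KMT2D to -0.033 (NIKsh minus NTC -0.181), BCOR to 0.011 and the Maver-1 change of NOTCH1 to 0.064. A single effect over all 6 cultures, added after the data were seen, turned NSD2 to 0.028 and SMARCA4 to 0.046 and called 0 genes (839 at an unadjusted p under 0.05). Leave-one-out fits gave -0.121 to 0.005 for SMARCA4, -0.065 to 0.006 for SAMHD1 and -0.263 to 0.102 for BCOR. They gave -1.142 to 0.366 for the NIKsh minus NTC difference of NOTCH1, -0.372 to 0.186 for its Maver-1 change, and -0.77 to 0.038 for the line difference of NOTCH2.

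The 5 genes called for the NIKsh change became 3 without a filter, with the mean over probe sets or without the intensity trend, 2 with the minimum at the 75th percentile, 18 with array weights, 16 with no replicate block, 13 with culture as a random block and 0 to 5 over the leave-one-out fits. For the Z-138 change 247 became 164 without a filter, 155 at the 75th percentile, 118 with the mean over probe sets, 23 without the trend, 139 with array weights and 248 to 918 over the leave-one-out fits. For Maver-1, 0 became 0 to 42 over them. For the line difference 14 became 9 without a filter, 8 at the 75th percentile, 1 with the mean over probe sets, 0 without the trend and 9 to 423 over the leave-one-out fits. The causes were not tested, and which genes these are was not compared. Low signals limit BCOR in Z-138, NOTCH1 in Maver-1 and the shared MEF2B probe set.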

Other observations

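For each gene the genes most like it over the 12 arrays, after the line means were removed, were read as a description, since the arrays share cultures and amplification. The values are the highest among all 11548 genes tested, and such a choice alone can give a high r. NOTCH2 ran most closely with WBP4 (Pearson r = 0.97) and SLAIN2 (0.96), and NOTCH1 with BUD23 (0.96) and B4GALT2 (0.95). SMARCA4 ran with UFSP2 (0.97) and COG7 (0.95), and NSD2 with FBLN1 (0.96) and ERGIC1 (0.95). ATM ran with ZMAT1 and FZD5 (0.96 each), and KMT2D with CRYL1 and AFDN (0.94 each). SAMHD1 had the loosest match, SUFU (0.87) and SHLD2 (0.85). For BCOR the match with FEM1B and CFAP45 (0.94 each) includes the Z-138 arrays near the floor.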
